A study of Homo sapiens with 21 samples.

Results

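The proto-oncogene MYC and 40 genes of ribosome biogenesis were followed in human cells under endoplasmic reticulum (ER) stress. The 41 genes were taken by symbol from the deposited gene table, in which each matched 1 of 60671 genes, and all 41 were among the 14012 genes with enough counts to be tested. The list holds MYC, 6 genes of RNA polymerase I and its initiation factors, 3 nucleolar scaffold and chaperone genes, 3 box C/D and 4 box H/ACA small nucleolar ribonucleoprotein (snoRNP) genes, 8 genes of the small subunit processome, 6 of pre-40S maturation and 10 of large subunit assembly.

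RNA was collected in 21 libraries, 3 for each of 7 groups. OCI-AML3, a human acute myeloid leukaemia line that is known to carry a mutated NPM1, was either untreated (0 h) or cultured with the solvent DMSO or with 1 μg/mL tunicamycin for 4 h or 24 h. HEK293T, a human embryonic kidney line that carries the SV40 large T antigen, was cultured with DMSO or with 1 μg/mL tunicamycin for 24 h. The lines were grown in different media (RPMI for OCI-AML3 and DMEM for HEK293T), and the sources used here do not say whether replicate libraries came from separate cultures, so p-values measure the spread between these libraries, which may be technical. Tunicamycin blocks N-linked glycosylation, so that unfolded glycoproteins accumulate in the ER. The stress genes HSPA5, an ER chaperone, and DDIT3, a transcription factor of the stress response, rose in all 3 comparisons of tunicamycin with DMSO (edgeR's quasi-likelihood test, adjusted p of 1.2e-16 at most). In OCI-AML3 the log2 changes at 4 h and 24 h were 3.29 and 3.53 for HSPA5 and 5.36 and 4.33 for DDIT3, and in HEK293T the means rose from 475 to 3090 CPM and from 6.56 to 84.5 CPM.

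Ribosomes are assembled in the nucleolus. RNA polymerase I transcribes a long precursor, snoRNPs guide the chemical modification and part of the cleavage of that precursor, the small subunit processome folds and cuts its first segment, and further factors mature the pre-40S and pre-60S particles. MYC, a transcription factor that pairs with MAX on the E-box CACGTG, is known as a driver of this programme in growing and leukaemic cells, and genes of every step above have been described as its targets. Each library measures total polyadenylated RNA of a culture, so for any value below fewer cells that use a gene and less RNA per cell cannot be told apart.

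The E-box was looked for in the windows from 250 bases before to 50 bases after the start of each gene (RefSeq, GRCh38.p14), which were matched for 32 of the 41 genes. The other 9 were MYC, NOP58, NOLC1, BOP1, RRP1B, RRP12, RRS1, DDX18 and DDX49. CACGTG, which reads alike on both strands, was found in 12 of these 32 windows (37.5%), against 7.26% of all 35116 windows of the table and 9.45% of the 14917 windows of tested genes. Among 100 matched windows of other ribosome biogenesis genes, 28 held it (28%). Members and these other genes entered with a single window each. The shares of the table count every window, so genes with several starts entered them repeatedly. The 13 matches are shown because MYC with MAX is known to bind this sequence. Each stretch is read 5′ to 3′ on the strand of the gene, with up to 10 bases on each side of the match, and the capitals mark the E-box.
FBL (chr19:39846358-39846383, minus strand): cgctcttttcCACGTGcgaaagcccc
NOP2 (chr12:6568242-6568266, minus strand): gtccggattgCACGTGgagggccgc
NOP10, first match (chr15:34343291-34343316, minus strand): agggacactcCACGTGttttagcctg
NOP10, second match (chr15:34343132-34343157, minus strand): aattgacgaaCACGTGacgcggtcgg
NOP14 (chr4:2963376-2963401, minus strand): cgcggcccggCACGTGtcttagggta
PES1 (chr22:30591882-30591907, minus strand): cttggcagggCACGTGcgggaggaag
WDR43 (chr2:28894660-28894685, plus strand): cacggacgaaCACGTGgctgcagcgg
UTP20 (chr12:101280085-101280110, plus strand): tttttccgtcCACGTGacccactcag
RRP9 (chr3:51941894-51941919, minus strand): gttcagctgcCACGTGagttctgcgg
BYSL (chr6:41921517-41921542, plus strand): cttcagtcccCACGTGcgatccttcc
LTV1 (chr6:143843356-143843381, plus strand): cctggggctgCACGTGtggtgaggcc
PNO1 (chr2:68157887-68157912, plus strand): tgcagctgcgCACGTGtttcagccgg
NAT10 (chr11:34105604-34105629, plus strand): tgcgcttgcgCACGTGctgtctacca

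A match says only that these letters are in the window, and no binding of MYC was measured. Of the 13 matches, 8 begin after the start of the gene. The C/EBP-ATF element TGATGCAAT, searched on both strands as the element that the stress factor ATF4 is known to bind, was in 0 of the 32 windows and in 0.236% of all windows.

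MYC itself (ENSG00000136997, GRCh38, chr8:127735434-127742951, plus strand) moved in opposite directions in the 2 lines after 24 h of tunicamycin. Levels are in CPM, a gene's counts scaled to a common library size after TMM correction of each library for composition. In untreated OCI-AML3 the 3 libraries held 288, 298 and 282 CPM, and after 4 h they held 266, 281 and 273 CPM with DMSO against 294, 280 and 261 CPM with tunicamycin. After 24 h they held 282, 262 and 273 CPM with DMSO against 213, 209 and 196 CPM with tunicamycin. The tunicamycin libraries at 24 h were the lowest of OCI-AML3 and did not overlap with their DMSO libraries, whereas the groups at 4 h overlapped. In HEK293T MYC was at 117, 112 and 114 CPM with DMSO and at 164, 159 and 160 CPM with tunicamycin, with every tunicamycin library above every DMSO library.

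MYC thus fell by 0.41 ± 0.056 (SE) on the log2 scale in OCI-AML3 at 24 h (edgeR's quasi-likelihood test, adjusted p = 3.6e-06) and rose by 0.49 ± 0.057 in HEK293T (adjusted p = 7.3e-07 in the same edgeR test). These changes correspond to 0.755-fold and 1.41-fold. At 4 h its log2 change was 0.027 ± 0.056 (adjusted p = 0.74 by edgeR), and that value lay on either side of 0 as libraries were left out. The change at 24 h minus that at 4 h was -0.43 ± 0.079 (adjusted p = 2.3e-04, edgeR interaction). The change in HEK293T was higher than that in OCI-AML3 by 0.90 ± 0.080 (adjusted p = 3.6e-08, edgeR interaction), the largest such difference among the 41 genes. The MYC gene overlaps exons of CASC11 on the other strand, and whether counting used the strand is not given in the sources used here.

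**Figure D1:**
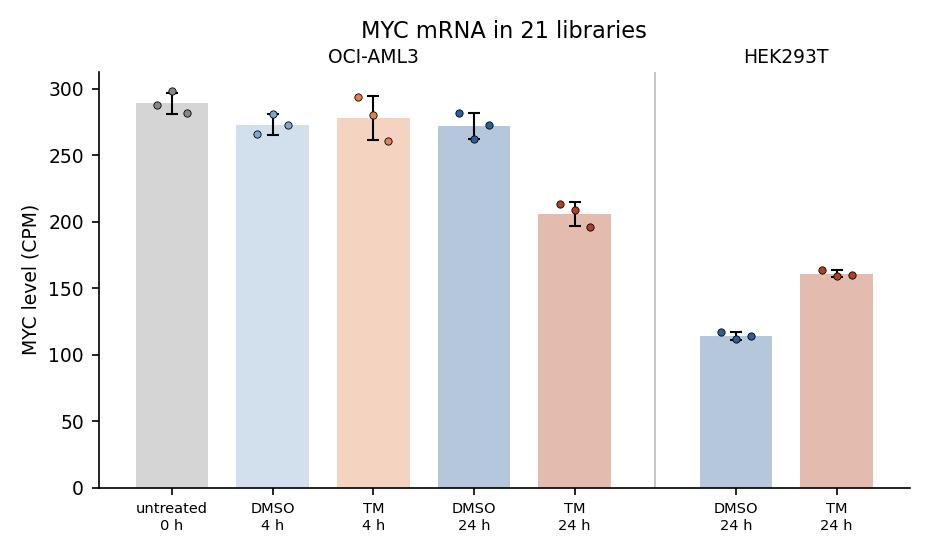
MYC level in CPM (vertical axis) in each of the 21 libraries (points), with the mean (bars) and SD (error bars, n = 3) of each of the 7 groups, TM standing for tunicamycin. In OCI-AML3 the 24 h tunicamycin libraries sit between 196 and 213 CPM, below all others of that line, and in HEK293T the tunicamycin libraries sit above the DMSO libraries.

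Over all 41 genes, a gene was counted as higher or lower where the adjusted p, over all 14012 genes, was at most 0.05. After 4 h of tunicamycin in OCI-AML3, 6 genes were higher (14.6%, against 18.5% of all genes tested), 12 were lower (29.3%, against 18.9%) and 23 did not pass. After 24 h, 0 were higher (against 23.5%), 33 were lower (80.5%, against 27.7%) and 8 did not pass, and the fitted change was below 0 for all 41. In HEK293T at 24 h, 2 were higher (4.88%, against 12.6%), 19 were lower (46.3%, against 13.1%) and 20 did not pass. Without the first DMSO library of HEK293T 7 of these 21 calls were lost, and without any other single HEK293T library 4 or 6. With each library left out in turn, 1 member was higher there. The median log2 change of the 41 genes was -0.10, -0.42 and -0.16 in these 3 comparisons. At 4 h it was -0.062 without the third DMSO library.

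In edgeR's fit every member changed by less than 1 log2 unit with tunicamycin, the furthest being BOP1 at 24 h in OCI-AML3 (-0.97). In none of these 3 comparisons did a member pass both thresholds of the study, an adjusted p of at most 0.05 and more than 1 log2 unit (0 by edgeR, limma voom and DESeq2), against 4.92%, 6.32% and 2.13% of all genes tested. NOP16 passed both at 4 h once the third DMSO library at 4 h was left out, and at 24 h BOP1 did without the first tunicamycin library and NOP16 without the second (log2 changes of -1.02, -1.05 and -1.02).

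Many members were also lower after the longer culture with DMSO alone. With DMSO at 24 h against DMSO at 4 h in OCI-AML3, 1 member was higher (2.44%, against 21% of all genes tested), 27 were lower (65.9%, against 21.6%) and 13 did not pass, with a median of -0.36. None of the 41 passed both thresholds in edgeR's test or in limma voom or DESeq2, against 4.15% of all genes. Without the first DMSO library at 4 h, 4 members were higher. With DMSO at 4 h against untreated cells, 0 of the 41 passed by edgeR, limma voom or DESeq2, and 2 had an unadjusted p under 0.05. Of all genes tested 0% passed in edgeR's test there, and 8.28% had an unadjusted p under 0.05. Without TMM scaling the median of all genes tested moved to -0.14 in the comparison of 24 h with 4 h, and that of the members to -0.48. The comparison of DMSO at 24 h with 4 h shares its libraries with both tunicamycin comparisons of OCI-AML3, so their values are set side by side and were not correlated.

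Library by library the 40 genes without MYC gave the same order. Relative to the mean of untreated OCI-AML3, their median log2 ratio was -0.080 to -0.029 in the DMSO libraries at 4 h and -0.209 to -0.154 in the tunicamycin libraries at 4 h. It was -0.409 to -0.398 with DMSO at 24 h and -0.908 to -0.773 with tunicamycin at 24 h. No 2 of these 4 groups overlapped, and the third tunicamycin library at 24 h was the lowest. Relative to DMSO in HEK293T, the tunicamycin libraries were at -0.191 to -0.166. In the third tunicamycin library of OCI-AML3 at 24 h the TMM factor was 1.004, against 0.9308 and 0.9227 in the other tunicamycin libraries at 24 h, and its part in the low median was not tested. Without this library the median change of the 41 genes at 24 h was -0.34 and 32 genes kept their lower call.

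**Figure D2:**
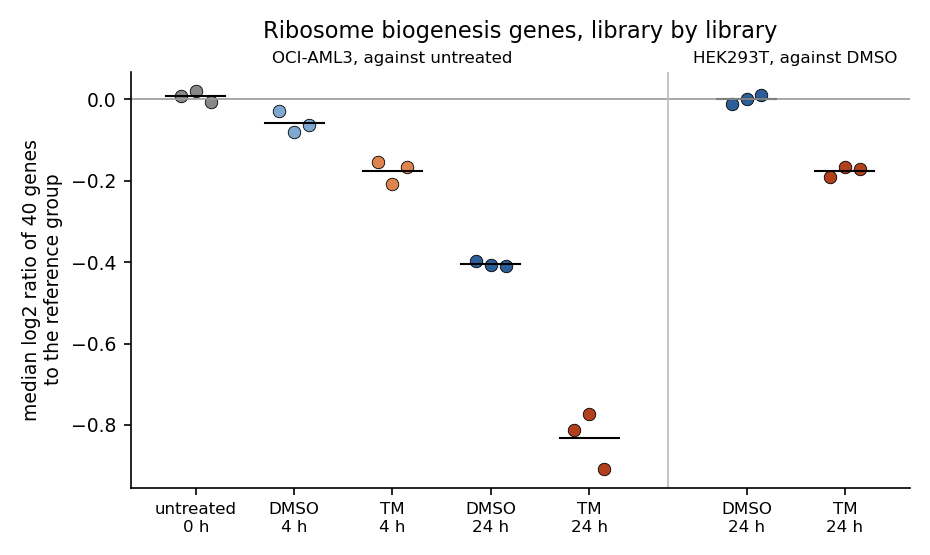
Median log2 ratio of the 40 ribosome biogenesis genes (vertical axis) in each library (points) to the mean of untreated cells for OCI-AML3 and of DMSO cells for HEK293T, with the mean of each group (lines), TM standing for tunicamycin. The points step down from untreated to DMSO at 4 h, tunicamycin at 4 h, DMSO at 24 h and tunicamycin at 24 h, where they reach -0.908.

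**Figure D3:**
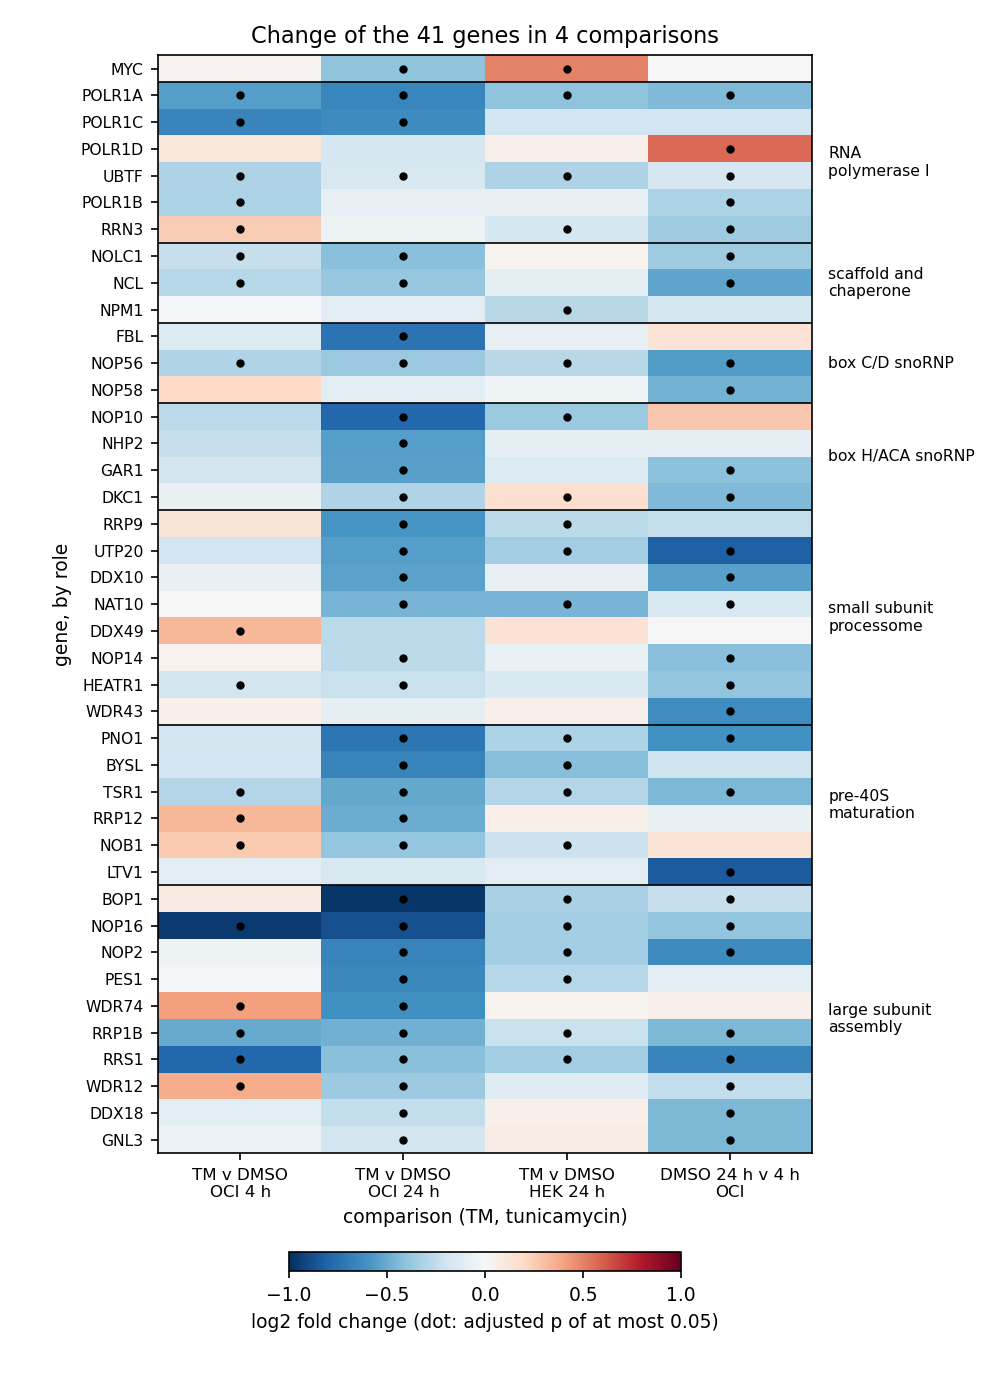
Log2 fold change (colour) of each of the 41 genes (rows, grouped by role) in the 3 comparisons of tunicamycin (TM) with DMSO and in DMSO at 24 h against 4 h (columns), a dot marking an adjusted p of at most 0.05 in edgeR's test. The second column is below 0 throughout, with 33 dots, whereas the first column holds 6 higher and 12 lower genes.

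Among the 6 RNA polymerase I genes 4 were lower at 4 h (POLR1A, POLR1B, POLR1C and UBTF) and 1 was higher (RRN3), against 18.9% and 18.5% of all genes tested, and 3 were lower at 24 h in OCI-AML3 (POLR1A, POLR1C and UBTF, against 27.7%) and 3 in HEK293T (POLR1A, UBTF and RRN3, against 13.1%). POLR1A encodes the largest subunit of the enzyme, POLR1B its second largest, and POLR1C and POLR1D a pair of subunits shared with RNA polymerase III. UBTF binds the ribosomal DNA promoter, and RRN3 links the polymerase to its initiation factors. POLR1C (ENSG00000171453, chr6:43509702-43562419, plus strand) was at 63.5, 60.1 and 54.7 CPM with DMSO at 4 h and at 38.9, 37.1 and 36.4 CPM with tunicamycin. At 24 h it was at 47.0, 52.6 and 56.9 CPM with DMSO and at 36.4, 35.4 and 29.8 CPM with tunicamycin. All tunicamycin libraries lay below all DMSO libraries at both times.

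POLR1C fell by 0.66 ± 0.082 at 4 h and by 0.63 ± 0.084 at 24 h (edgeR's quasi-likelihood test, adjusted p of 2.2e-06 at most), and its exons overlap those of XPO5, YIPF3 and LRRC73 on the other strand. In HEK293T its log2 change was -0.19 ± 0.079 (adjusted p = 0.075 by edgeR). POLR1A was at 158, 171 and 161 CPM in HEK293T with DMSO and at 134, 121 and 115 CPM with tunicamycin, a clear separation of the groups. It fell by 0.40 ± 0.095 there, by 0.55 ± 0.095 in OCI-AML3 at 4 h and by 0.65 ± 0.097 at 24 h (adjusted p of 0.0029 at most by edgeR). POLR1B was lower at 4 h (-0.32) with a log2 change of -0.08 at 24 h, and the difference of its effects between the times passed (0.24, adjusted p = 0.022 by edgeR). That call was lost without the third DMSO library at 4 h or the second tunicamycin library at 4 h (adjusted p of 0.21 at most over all alternatives). It was also lost when every gene with at least 1 count was tested. The HEK293T call of RRN3 (-0.17, adjusted p = 0.047 by edgeR) held in 7 of 14 alternatives. It was lost without any tunicamycin library or the first or the third DMSO library there (highest adjusted p = 0.22 by edgeR). The call was also lost under the replicate block and when every gene with at least 1 count was tested. RRN3, higher at 4 h (0.26), also has 4 genes named as its pseudogenes in the table.

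POLR1D was the only member that was higher with DMSO at 24 h than at 4 h. Its libraries held 105, 83.1 and 84.8 CPM at 4 h and 133, 127 and 142 CPM at 24 h, with no overlap, a rise of 0.56 ± 0.080 (edgeR, adjusted p = 7.9e-06). Its log2 change with tunicamycin was 0.11 at 4 h, -0.17 at 24 h and 0.05 in HEK293T, none of which passed. Over the same hours in DMSO, POLR1A, POLR1B, RRN3 and UBTF were lower, with log2 changes from -0.44 to -0.17. UBTF kept that call in 6 of 14 alternatives and its call for tunicamycin at 24 h in 4 of 14. Without the third tunicamycin library the latter change was -0.052 (edgeR, adjusted p = 0.55), and without the third DMSO library at 24 h the former had an adjusted p of 0.20.

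Of the 3 nucleolar scaffold genes NCL and NOLC1 were lower in OCI-AML3 with tunicamycin at both times and over culture time in DMSO (against 18.9%, 27.7% and 21.6% of all genes tested), and NPM1 passed in none of these comparisons. NCL encodes nucleolin, a major protein of the nucleolus, NPM1 the chaperone nucleophosmin, and NOLC1 a protein that shuttles snoRNPs. NCL held 1837, 1810 and 1886 CPM with DMSO at 4 h and 1537, 1453 and 1545 CPM with tunicamycin. At 24 h it held 1280, 1270 and 1280 CPM with DMSO and 992, 966 and 990 CPM with tunicamycin. The 4 groups did not overlap in any pair. NCL fell by 0.29 ± 0.054 at 4 h, by 0.38 ± 0.054 at 24 h and by 0.53 ± 0.054 from 4 h to 24 h in DMSO (adjusted p of 1.9e-04 at most by edgeR). NOLC1 followed it in OCI-AML3, with -0.23, -0.42 and -0.36.

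In HEK293T the member of this group that passed in edgeR's test was NPM1, which was lower (against 13.1% of all genes tested). NPM1 held 2142, 2140 and 2265 CPM with DMSO and 1740, 1772 and 1884 CPM with tunicamycin, without overlap, a fall of 0.28 ± 0.071 (edgeR, adjusted p = 0.0055). In OCI-AML3 the values of NPM1 were -0.008 at 4 h, -0.11 at 24 h and -0.18 over culture time in DMSO (adjusted p = 0.051 for the last by edgeR). Neither NCL (-0.10) nor NOLC1 (0.04) passed in HEK293T by edgeR. NCL gained a call there with DESeq2's Wald test and with the compared groups alone. The interaction of tunicamycin with the line passed for NCL and NOLC1 (0.28 and 0.45) and not for NPM1 (-0.17). The table lists 49 genes named as NPM1 pseudogenes, to which the counting could assign reads of NPM1, and the counts do not separate the mutated from the normal allele.

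Box C/D snoRNPs place methyl groups on the precursor. Their methyltransferase FBL (fibrillarin) had 263, 214 and 199 CPM with DMSO at 4 h against 212, 205 and 198 CPM with tunicamycin, and these groups overlapped. After 24 h FBL had 231, 260 and 254 CPM against 155, 168 and 124 CPM, and all tunicamycin libraries were lower. FBL fell by 0.74 ± 0.097 at 24 h (edgeR, adjusted p = 1.8e-06) with log2 changes of -0.14 at 4 h and -0.08 in HEK293T that did not pass. Both differences passed: its effect at 24 h minus that at 4 h was -0.60 ± 0.136 (adjusted p = 0.0016), and its effect in HEK293T minus that in OCI-AML3 was 0.66 ± 0.136 (adjusted p = 0.0011, both edgeR interactions).

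The core proteins NOP56 and NOP58, partners in the same particle, gave different calls. NOP56 was lower in all 3 tunicamycin comparisons (-0.30, -0.37 and -0.28) and in DMSO at 24 h against 4 h (-0.56). NOP58 passed in none of the 3 (0.20, -0.11 and -0.04) and was lower only over culture time in DMSO (-0.47) among these 4 comparisons.

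Box H/ACA snoRNPs convert uridine to pseudouridine, and DKC1 (dyskerin) is their enzyme. None of its 4 genes passed at 4 h (against 18.5% of all genes tested that were higher and 18.9% lower), with log2 changes from -0.27 to -0.08. NHP2 and NOP10 gained a call at 4 h when every gene with at least 1 count was tested. All 4 were lower at 24 h in OCI-AML3 (against 27.7% of all genes tested). NOP10 (chr15:34339159-34343180, minus strand), the smallest core protein and the gene with a pair of E-box matches above, held 76.4, 85.7 and 102 CPM with DMSO at 24 h and 51.1, 62.3 and 40.2 CPM with tunicamycin. The groups did not overlap and NOP10 fell by 0.78 ± 0.137 (edgeR, adjusted p = 5.8e-05). NHP2 (-0.55), GAR1 (-0.54) and DKC1 (-0.30) made up the rest.

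DKC1 turned with the line, as MYC did. In OCI-AML3 at 24 h it held 168, 169 and 166 CPM with DMSO and 147, 132 and 129 CPM with tunicamycin, and in HEK293T it held 278, 279 and 281 CPM with DMSO and 311, 316 and 316 CPM with tunicamycin. The groups were separate in both lines, in opposite order. DKC1 fell by 0.30 ± 0.057 in OCI-AML3 (adjusted p = 1.4e-04) and rose by 0.17 ± 0.056 in HEK293T (adjusted p = 0.027), and the difference was 0.48 ± 0.080 (adjusted p = 1.5e-04, all by edgeR's quasi-likelihood test). The rise in HEK293T was small and did not pass once any 1 of the 6 HEK293T libraries was left out (adjusted p of 0.055 to 0.075 by edgeR), so that MYC alone was then higher there. It also did not pass without TMM scaling or when every gene with at least 1 count was tested.

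Small subunit processome genes stood near 0 at 4 h and below it at 24 h. Of the 8 members, DDX49 was higher and HEATR1 lower at 4 h (against 18.5% and 18.9% of all genes tested), 6 were lower at 24 h (against 27.7%) and 3 were lower in HEK293T (NAT10, UTP20 and RRP9, against 13.1%). The HEK293T call of RRP9 (-0.27, adjusted p = 0.047) held in 8 of 14 alternatives and was lost without any tunicamycin library or the first or the second DMSO library there (highest adjusted p = 0.18 by edgeR). NAT10, an RNA cytidine acetyltransferase, was at 172, 167 and 152 CPM with DMSO at 24 h in OCI-AML3 and at 125, 118 and 114 CPM with tunicamycin. In HEK293T it was at 156, 164 and 162 CPM with DMSO and at 118, 117 and 114 CPM with tunicamycin. The groups were separate in both lines and the falls were nearly equal, 0.46 ± 0.060 and 0.46 ± 0.059 (adjusted p of 3.0e-06 at most by edgeR), with an interaction of -0.004 ± 0.084 (adjusted p = 1 by edgeR). At 4 h NAT10 was near 0 (0.007 ± 0.059, adjusted p = 0.95 by edgeR).

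UTP20, a large scaffold protein, had the largest fall over culture time among the 8 processome genes. It held 58.1, 74.1 and 67.8 CPM with DMSO at 4 h, 39.3, 41.3 and 32.8 CPM with DMSO at 24 h and 25.6, 24.0 and 27.9 CPM with tunicamycin at 24 h. These 3 groups formed 3 separate steps. The fall was 0.82 ± 0.095 over culture time (edgeR, adjusted p = 6.2e-07) and 0.55 ± 0.100 with tunicamycin at 24 h (adjusted p = 1.0e-04). The RNA helicase DDX10 (-0.54), RRP9 (-0.59), NOP14 (-0.26) and HEATR1 (-0.22) were also lower at 24 h with tunicamycin. WDR43, a scaffold subunit, passed only over culture time among the 4 comparisons above (-0.62).

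DDX49, an RNA helicase, had 96.7, 76.8 and 75.1 CPM with DMSO at 4 h and 111, 106 and 94.6 CPM with tunicamycin. Because 1 DMSO library reached into the tunicamycin range, the groups overlapped, and the rise of 0.33 ± 0.119 (edgeR, adjusted p = 0.034) was lost without the second or the third DMSO library or the first or second tunicamycin library (highest adjusted p = 0.14). HEATR1 (-0.18) lost its call at 4 h without any of 4 libraries as well: the second or the third of either group (highest adjusted p = 0.19). At 24 h it lost its call without the first DMSO library or the first or second tunicamycin library (adjusted p of 0.14 at most).

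Pre-40S factors included genes that turned between the times. RRP12, a nuclear export factor of the pre-ribosome, held 71.5, 83.1 and 78.7 CPM with DMSO at 4 h and 103, 95.4 and 95.4 CPM with tunicamycin. The later libraries held 72.5, 83.5 and 64.8 CPM with DMSO and 58.2, 52.1 and 46.2 CPM with tunicamycin. Tunicamycin libraries were thus all higher at 4 h and all lower at 24 h. RRP12 rose by 0.33 ± 0.084 (adjusted p = 0.0030) and then fell by 0.50 ± 0.087 (adjusted p = 5.5e-05), a difference of -0.83 ± 0.121 (adjusted p = 1.8e-05, all by edgeR). NOB1, the nuclease that makes the final cut of 18S rRNA, did the same with 0.27 and -0.38.

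BYSL, PNO1 and TSR1, assembly factors of the same particle, were lower at 24 h in both lines. BYSL held 44.2, 51.2 and 47.5 CPM with DMSO at 24 h in OCI-AML3 and 32.5, 32.2 and 25.4 CPM with tunicamycin, and in HEK293T 69.2, 67.6 and 63.9 CPM against 49.8, 50.5 and 49.3 CPM. The groups were separate in both lines, and the falls were 0.67 ± 0.089 and 0.42 ± 0.084 (edgeR, adjusted p of 6.3e-04 at most). PNO1 fell by 0.72 and 0.32, and TSR1 by 0.51 and 0.29. NOB1 was also lower in HEK293T (-0.22), which did not hold without the second tunicamycin library there (adjusted p = 0.062) or the first DMSO library.

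LTV1, an assembly factor that must leave the pre-40S particle, was lower over culture time, and none of its changes with tunicamycin passed. It was at 56.7, 52.8 and 64.4 CPM with DMSO at 4 h and at 34.7, 33.4 and 29.7 CPM at 24 h, with no overlap, and fell by 0.83 ± 0.103 (edgeR, adjusted p = 1.5e-06), the largest fall over culture time among the 41 genes. With tunicamycin it was at 52.2, 51.9 and 57.8 CPM at 4 h and at 26.4, 31.3 and 29.9 CPM at 24 h, overlapping with DMSO at both times. Its log2 changes with tunicamycin were -0.10, -0.16 and -0.10, with adjusted p of 0.22 to 0.46 (edgeR). LTV1 shares exons with 2 other annotated genes on its strand.

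Large subunit assembly factors gave the largest single falls with tunicamycin in OCI-AML3. All 10 were lower at 24 h in OCI-AML3 (median -0.55, against 27.7% of all genes tested), 6 were lower in HEK293T (against 13.1%) and 8 were lower over culture time in DMSO (against 21.6%). At 4 h 3 were lower (NOP16, RRS1 and RRP1B, against 18.9%) and 2 were higher (WDR74 and WDR12, against 18.5%). BOP1, PES1 and WDR12 form the PeBoW complex, which is needed to process the precursor of the large subunit. BOP1 (ENSG00000261236, chr8:144262045-144291438, minus strand) held 306, 311 and 276 CPM with DMSO at 4 h and 322, 320 and 304 CPM with tunicamycin, with overlap. At 24 h it held 244, 276 and 242 CPM with DMSO and 151, 131 and 107 CPM with tunicamycin. Every tunicamycin library at 24 h was well below every DMSO library.

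BOP1 fell by 0.97 ± 0.093 at 24 h (edgeR, adjusted p = 1.7e-08), to 0.510-fold, the largest fall of the 41 genes in that comparison. At 4 h its log2 change was 0.09 ± 0.090 (adjusted p = 0.49), and the effect at 24 h minus that at 4 h was -1.06 ± 0.129 (adjusted p = 2.5e-06, edgeR interaction). In HEK293T BOP1 held 174, 172 and 152 CPM with DMSO and 139, 133 and 125 CPM with tunicamycin, without overlap, a fall of 0.33 ± 0.092 (adjusted p = 0.011) that did not pass without the third tunicamycin library (adjusted p = 0.058) or the first DMSO library. Over culture time in DMSO it fell by 0.23, a call that was lost without the first or second DMSO library at 4 h or the first or the third at 24 h (highest adjusted p = 0.14). That call was also lost with DESeq2, its size factors, the filter of 1 CPM in 3 libraries and the compared groups alone.

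Of the partners of BOP1 in PeBoW, WDR12 passed at 4 h and PES1 did not. PES1 was at -0.02 there and fell by 0.65 at 24 h and by 0.28 in HEK293T. WDR12 held 102, 95.3 and 98.4 CPM with DMSO at 4 h and 131, 129 and 123 CPM with tunicamycin, and at 24 h 81.3, 78.7 and 89.0 CPM with DMSO and 60.3, 72.1 and 61.2 CPM with tunicamycin. The groups were separate at both times, in opposite order. WDR12 rose by 0.37 ± 0.068 (adjusted p = 1.4e-04) and fell by 0.36 ± 0.071 (adjusted p = 1.8e-04), a difference of -0.74 ± 0.098 (adjusted p = 6.9e-06, all by edgeR). Its exons overlap those of CARF and NBEAL1 on the other strand.

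WDR74 (ENSG00000133316, chr11:62832342-62841809, minus strand), which works with the remodelling ATPase NVL in the pre-60S particle, had the largest rise at 4 h. It held 73.6, 66.0 and 59.7 CPM with DMSO and 91.3, 88.5 and 85.2 CPM with tunicamycin, and at 24 h 65.0, 75.0 and 66.3 CPM with DMSO and 50.8, 46.8 and 37.6 CPM with tunicamycin. The groups did not overlap at either time and changed places between them. The rise was 0.41 ± 0.094 (edgeR, adjusted p = 0.0013), the fall 0.61 ± 0.097 (adjusted p = 1.9e-05) and the difference -1.03 ± 0.135 (adjusted p = 6.1e-06). In HEK293T WDR74 had a mean of 40.4 ± 2.51 CPM (SD, n = 3) with DMSO and 41.3 ± 2.78 CPM with tunicamycin, and the groups overlapped (0.034 ± 0.097, adjusted p = 0.86 by edgeR). WDR74 shares exons with TEX54 on its strand.

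NOP16 and RRS1 had the largest falls at 4 h. NOP16 (ENSG00000048162, chr5:176383946-176388927, minus strand), described as a MYC-regulated nucleolar protein of the pre-60S particle, held 120, 98.9 and 96.2 CPM with DMSO at 4 h and 53.1, 55.5 and 53.6 CPM with tunicamycin. At 24 h it held 71.2, 84.0 and 83.7 CPM with DMSO and 42.7, 54.8 and 33.2 CPM with tunicamycin. Its tunicamycin libraries were far below DMSO at both times, with no overlap. NOP16 fell by 0.96 ± 0.116 at 4 h (adjusted p = 7.4e-07), by 0.88 ± 0.119 at 24 h (adjusted p = 2.5e-06) and by 0.34 ± 0.114 in HEK293T (adjusted p = 0.030, all by edgeR). The HEK293T call was lost without any of the 3 DMSO libraries or the second or the third tunicamycin library (adjusted p of 0.095 at most). NOP16 overlaps exons of ARL10 and HIGD2A on the other strand.

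RRS1 (ENSG00000179041, chr8:66429014-66430733, plus strand), which helps to bring the 5S RNA particle into the pre-60S particle, held 87.8, 96.4 and 93.7 CPM with DMSO at 4 h and 57.2, 52.6 and 51.8 CPM with tunicamycin. With DMSO at 24 h it held 56.3, 58.8 and 60.8 CPM, and with tunicamycin at 24 h 42.1, 48.0 and 41.4 CPM. Both pairs of groups were separate. RRS1 fell by 0.78 ± 0.070 at 4 h (adjusted p = 6.1e-09) and by 0.42 ± 0.072 at 24 h (adjusted p = 4.4e-05, both by edgeR), and it fell by 0.66 ± 0.070 over culture time. It was 1 of only 2 members, with POLR1B, whose effect at 24 h was higher than at 4 h (0.36 ± 0.100, adjusted p = 0.0073 by edgeR). RRS1 shares exons with another annotated gene on its strand.

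RRP1B, a nucleolar protein that also binds chromatin, was lower in all 3 tunicamycin comparisons (-0.51, -0.48 and -0.22). NOP2, an RNA methyltransferase, was lower at 24 h in both lines (-0.67 and -0.35) and over culture time (-0.63). The helicase DDX18 and the GTPase GNL3 (nucleostemin) had the smallest falls of the group at 24 h, -0.25 and -0.18. The call of GNL3 was lost without any of the 3 DMSO libraries at 24 h or the first or second tunicamycin library (highest adjusted p = 0.28 by edgeR). It was also lost with DESeq2, its size factors, no TMM scaling, the other filters on low counts and the compared groups alone. DDX18 lost its call without the first tunicamycin library, without TMM scaling and with the compared groups alone.

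**Figure D4:**
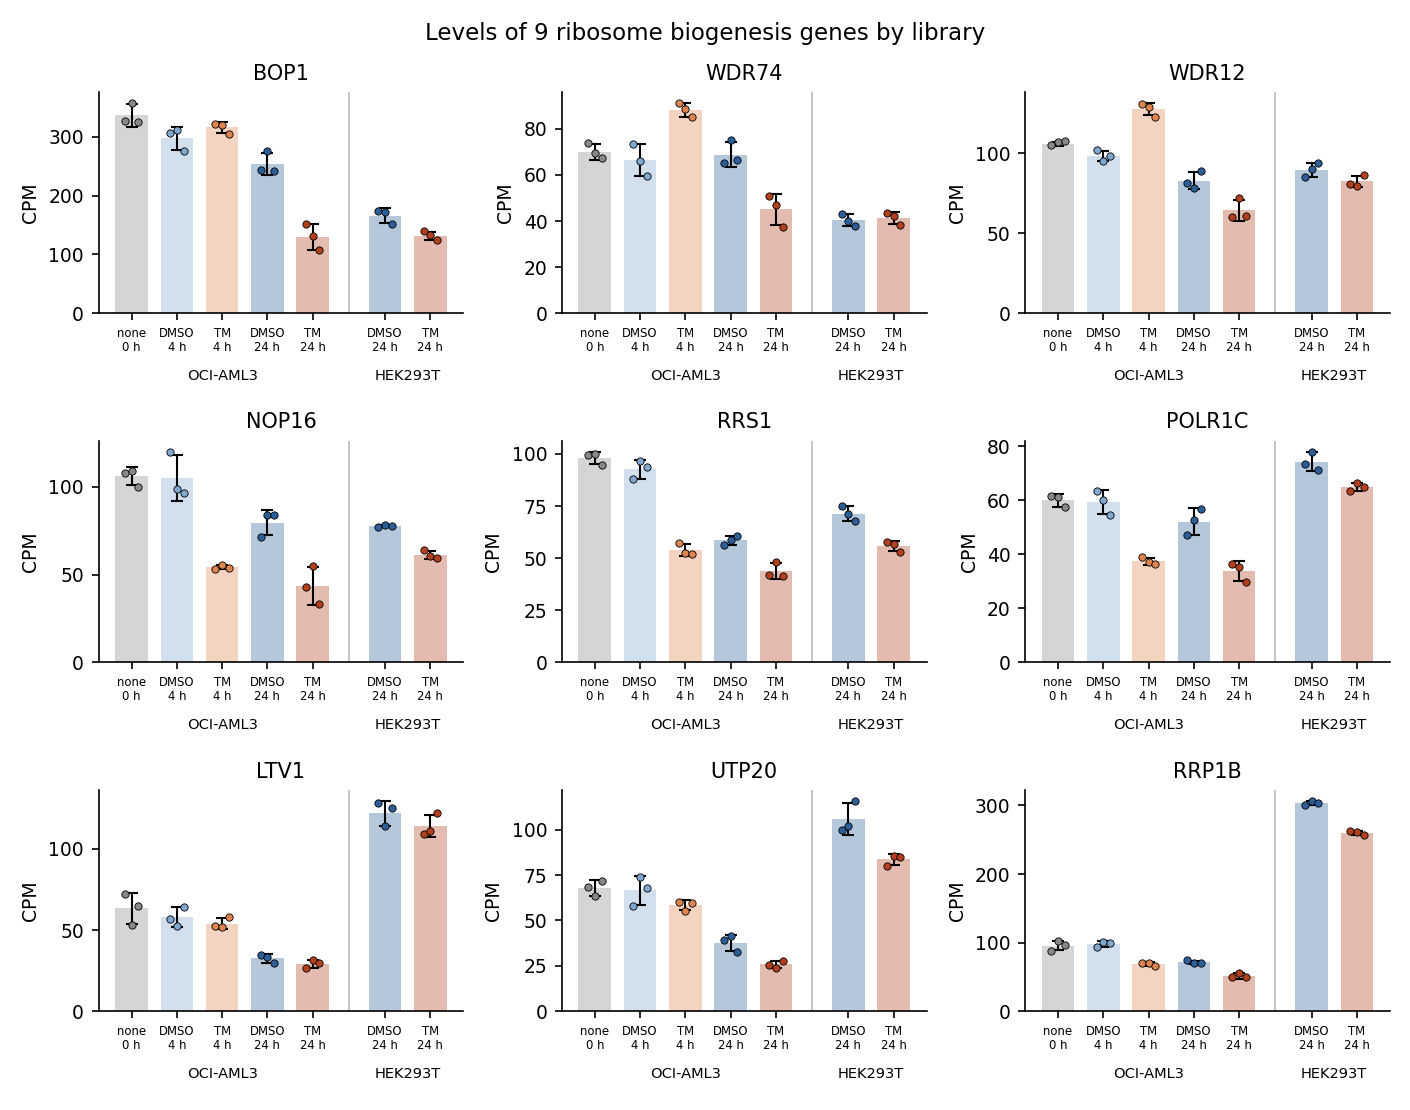
Level in CPM (vertical axes) of 9 ribosome biogenesis genes in each library (points), with the mean (bars) and SD (error bars, n = 3) of each group, where none is untreated and TM is tunicamycin. BOP1, WDR74 and WDR12 are at or above DMSO at 4 h and below it at 24 h, NOP16, RRS1 and POLR1C are below DMSO at both times, and LTV1, UTP20 and RRP1B are higher in HEK293T than in OCI-AML3.

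The times differed by a test of the difference itself for 23 of the 41 genes. The tunicamycin effect was lower at 24 h than at 4 h for 21 (51.2%, against 20.3% of all genes tested) and higher for 2 (4.88%, against 15.1%). For BOP1 and WDR74 the difference also exceeded 1 log2 unit (6.06% of all genes tested). Without the third DMSO library at 4 h only 1 gene passed both thresholds, and without the second DMSO library or the third tunicamycin library at 24 h neither did. WDR74, WDR12, RRP12 and NOB1 were higher at 4 h and lower at 24 h (1.88% of all genes tested), 11 genes were lower at both times (9.11%) and 18, MYC among them, were lower at 24 h without passing at 4 h (16.7%). RRS1 and POLR1B made up the 2 genes whose effect was higher at 24 h, of which RRS1 kept its call in 20 of 20 alternatives and POLR1B in 17. Among the 21 lower differences UTP20 kept its call in 4 of 20 alternatives (not with limma voom or DESeq2), DKC1 in 6, TSR1 and NOP10 in 7, RRN3 in 15 and NOP14 in 17.

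The lines differed in the same way for 20 of the 41 genes, all with a higher effect in HEK293T (48.8%, against 15.9% of all genes tested). None had a lower one (against 10.9%) by edgeR, limma voom or DESeq2, and none passed both thresholds (against 4.89%). After MYC the largest differences were those of FBL (0.66), WDR74 (0.65), BOP1 (0.65) and RRP12 (0.56). This count was sensitive to single libraries and to the settings, and it was 9 to 18 with each library left out in turn. It was 10 without the second and 9 without the third DMSO library of OCI-AML3 at 24 h, 10 without the third tunicamycin library of OCI-AML3, and 10, 9 and 12 without the first, the second and the third DMSO library of HEK293T. Without TMM scaling it was 11, with 2 genes then having a lower effect in HEK293T. With all libraries kept it was 14 with DESeq2's size factors, and 13 with the filter of 1 CPM in 3 libraries or the compared groups alone. It remained 20 with limma voom and with a replicate block.

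At 24 h 17 genes were lower in both lines (against 7.9% of all genes tested), 14 were lower in OCI-AML3 without passing in HEK293T (against 18.7%), NPM1 and RRN3 were lower in HEK293T without passing in OCI-AML3 (against 4%), and MYC and DKC1 were lower in OCI-AML3 and higher in HEK293T (against 1.05%). Of the 17, NOP10 had a HEK293T call (-0.37, edgeR, adjusted p = 0.046) that held in 7 of 14 alternatives and was lost under the replicate block and without any 1 of the 6 HEK293T libraries (highest adjusted p = 0.13). RRP9, NOP16, BOP1 and NOB1 also lost their HEK293T calls without some single libraries, and UBTF its OCI-AML3 call in most alternatives, DESeq2 among them. The rise of DKC1 in HEK293T was lost without any 1 of the 6 libraries. Genes lower in all 3 tunicamycin comparisons were NOP16, NOP56, RRP1B, RRS1, TSR1, POLR1A and UBTF (3.85% of all genes tested), with the limits on NOP16 and UBTF just given. No member was higher in all 3 (against 4.45%). Tunicamycin at 4 h and at 24 h, and in OCI-AML3 and HEK293T, were each compared with DMSO libraries of their own.

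**Figure D5:**
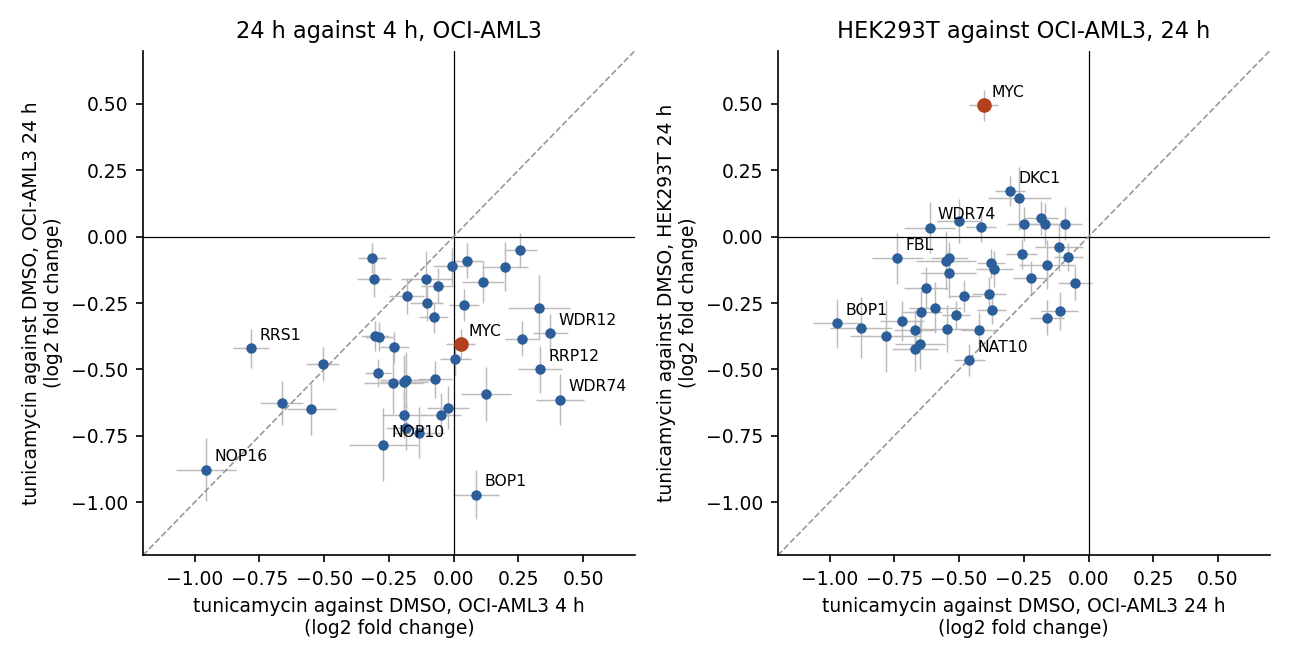
Log2 fold change of tunicamycin against DMSO for the 41 genes (points, with SE as bars), OCI-AML3 at 24 h against 4 h on the left and HEK293T against OCI-AML3 at 24 h on the right, with MYC in red and equal effects on the dashed line. On the left WDR74, WDR12 and RRP12 lie to the right of 0 and below it, and on the right MYC (0.49) stands highest and most points lie above the dashed line.

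With DMSO alone the levels differed between the lines, where cell line, medium and culture history cannot be told apart. With DMSO at 24 h, 29 members were higher in HEK293T than in OCI-AML3 (70.7%, against 40.5% of all genes tested), 7 were lower (17.1%, against 42.2%) and 5 did not pass, with a median of 0.61. RRP1B held 74.3, 70.1 and 71.0 CPM in OCI-AML3 and 301, 307 and 303 CPM in HEK293T. LTV1 held 34.7, 33.4 and 29.7 CPM against 128, 114 and 125 CPM, and UTP20 39.3, 41.3 and 32.8 CPM against 100, 102 and 116 CPM. The lines were far apart for all 3, by 2.08 ± 0.064, 1.91 ± 0.102 and 1.49 ± 0.094 log2 units (adjusted p of 9.3e-13 at most by edgeR).

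MYC stood on the other side, with 282, 262 and 273 CPM in OCI-AML3 and 117, 112 and 114 CPM in HEK293T. The difference was -1.26 ± 0.057 log2 units (0.419-fold, edgeR, adjusted p = 1.8e-15), followed by WDR74 (-0.77 ± 0.096, adjusted p = 1.3e-07) and POLR1D (-0.70 ± 0.080, adjusted p = 3.1e-08). BOP1 (-0.61), NOP10 (-0.56), NOB1 (-0.31) and UBTF (-0.25) were the other lower members. Without TMM scaling the median of all genes tested moved to 0.33 in this comparison, the median of the members was then 0.96, and NOB1, UBTF and NOP10 lost their calls, with NOB1 and UBTF turning to the higher side.

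Levels can be set against each other only per kilobase of exon (GENCODE release 44). In untreated OCI-AML3 NCL was highest at 214 CPM per kb, followed by NPM1 (147), FBL (106), NHP2 (103), BOP1 (87.6) and NOLC1 (86.0). MYC was at 47.3 CPM per kb, and UTP20 (6.75) and DDX10 (2.74) were lowest. In HEK293T with DMSO NPM1 led with 263 CPM per kb before NHP2 (196), NCL (187) and FBL (137), and MYC was at 18.7. Lengths are of all annotated exons merged, which are longer than the transcripts in use for some genes. The places in these orders, the highest and lowest among them, depend on that measure of length. The spread did not separate FBL (106 ± 6.88, SD, n = 3) from NHP2 (103 ± 4.1) or BOP1 (87.6 ± 4.93) from NOLC1 (86.0 ± 1.25) in untreated OCI-AML3.

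Wider lists of the same pathway, held apart from the 41 genes, can be read against the 27.7% of all genes tested that were lower and the 23.5% that were higher with tunicamycin at 24 h in OCI-AML3. Of 44 other genes of the small subunit processome and pre-40S particle, 31 were lower and 2 higher with tunicamycin at 24 h in OCI-AML3 (median -0.32), and of 49 other large subunit factors 32 were lower and 4 higher (median -0.33). RRP7A (-0.95) and TBL3 (-0.96) of the first list and WDR18 (-0.97) of the second fell most, while RSL24D1, a pre-60S factor, rose in all 3 tunicamycin comparisons (0.67, 0.24 and 0.56). Of 10 snoRNP assembly factors 6 were lower at 24 h, among them the paired ATPases RUVBL1 (-0.83) and RUVBL2 (-1.03). Of 10 other RNA polymerase I genes 3 were lower and 1 higher at 4 h (against 18.9% and 18.5% of all genes tested), and 3 were lower (30%, near the share of all genes) and 2 higher at 24 h, with POLR1F, a subunit of the enzyme's stalk, higher by 1.16 ± 0.099 (edgeR, adjusted p = 3.5e-09). POLR1G, another subunit, was lower in all 3 tunicamycin comparisons (-1.04 at 4 h, -0.34 at 24 h and -0.50 in HEK293T), and so was TCOF1, the nucleolar protein treacle (-0.29, -0.89 and -0.22).

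Over culture time in DMSO, 31 of the 44 small subunit genes, 34 of the 49 large subunit genes and 7 of the 10 other polymerase genes were lower, against 21.6% of all genes tested. In HEK293T with tunicamycin 20 of the 44 and 14 of the 49 were lower, against 13.1% of all genes tested. All 113 other ribosome biogenesis genes together had a median of -0.31 at 24 h in OCI-AML3, against -0.44 for the 40 described above.

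Of 11 genes of the MYC network, the partners and rivals of MYC, 10 were tested, and with tunicamycin at 4 h 3 were higher (30%, against 18.5% of all genes tested) and 3 lower (30%, against 18.9%). At 24 h 3 were higher and 2 lower (against 23.5% and 27.7%), and in HEK293T 1 was higher and 2 lower (against 12.6% and 13.1%). MXD1, which competes with MYC for MAX, rose at 4 h from a mean of 12.3 ± 1.65 CPM to 39.7 ± 2.25 CPM (SD, n = 3), by 1.68 ± 0.119 on the log2 scale (edgeR, adjusted p = 1.3e-10). Its rise at 24 h was 0.46 ± 0.121 (adjusted p = 0.0028). MXI1, a related repressor, rose by 0.57 at 4 h and by 1.29 over culture time in DMSO, and MAX rose by 0.26 at 4 h and by 0.20 at 24 h. The largest rise of the network at 24 h in OCI-AML3 was that of MXD4 (0.53 ± 0.088, edgeR, adjusted p = 3.4e-05). MGA (-0.47) and MXD3 (-0.41), both known as MAX partners, fell at 4 h, and MXD3 (-0.72) and MYCL (-0.66) fell at 24 h.

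Of 16 genes known as MYC targets outside ribosome biogenesis 15 were tested, and 14 were lower with tunicamycin at 24 h in OCI-AML3 (93.3%, against 27.7% of all genes tested, median -0.54), with 0 higher (against 23.5%). At 4 h 7 were lower and 2 higher (against 18.9% and 18.5% of all genes tested), and over culture time in DMSO 8 were lower and 2 higher (against 21.6% and 21%). The mitochondrial co-chaperone HSPE1 (-1.26), the nucleoside diphosphate kinase NME1 (-1.23) and the telomerase gene TERT (-1.07) fell most with tunicamycin at 24 h. In HEK293T 6 were lower (against 13.1% of all genes tested) and 1 was higher (against 12.6%), SRM, an enzyme of polyamine synthesis (0.33 ± 0.085, edgeR, adjusted p = 0.0064).

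Members with and without an E-box in their matched window can be set side by side, where CACGTG elsewhere in a gene was not looked for. At 4 h none of the 12 members with a match passed in edgeR's test, and 4 of the 20 without were higher and 9 lower, beside 18.5% and 18.9% of all genes tested. At 24 h 10 of the 12 were lower (median -0.62) and 16 of the 20 (median -0.38), beside 27.7% of all genes tested. In HEK293T 8 of the 12 (median -0.30) and 8 of the 20 (median -0.15) were lower, beside 13.1%. The effect was lower at 24 h than at 4 h for 10 of the 12 and for 7 of the 20, beside 20.3%. These counts are a description of the matched windows and were not tested.

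Features of the genes bear on how well they could be counted. Of the 41 genes 8 hold a snoRNA or scaRNA gene inside them (19.5%, against 1.77% of the tested genes), among them GNL3 with 6, NOP56 with 5 and NOP58 with 4. Exons of 5 members overlap another gene on the same strand, exons of 17 overlap one on the opposite strand, and 10 have genes named as their pseudogenes in the table, so reads of these members could be split in counting. Each member had between 267 and 49538 counts in every library.

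Libraries held 13838480 to 19961819 counts, with TMM factors of 0.8912 to 1.15. Of 6 blood and myeloid markers 5 (PTPRC, SPI1, CD33, LYZ and HOXA9) were at 1 CPM or more in all OCI-AML3 libraries, MPO was not, and in HEK293T only HOXA9 was. Their summed level was 737 to 863 CPM in OCI-AML3 and 88.1 to 129 CPM in HEK293T, where PTPRC and MPO had 3 counts or fewer. Of 5 embryonic kidney line markers 3 (CDH2, KRT8 and KRT18) were at 1 CPM or more in all HEK293T libraries, with a summed level of 121 to 147 CPM against 5.31 to 7.94 CPM in OCI-AML3. In OCI-AML3 LHX1 and CDH2 reached that level in all libraries and PAX2 had 3 counts or fewer.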

How the data were processed

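RNA-seq of polyadenylated RNA was measured in 21 libraries of OCI-AML3 and HEK293T. After trimming (seqtk) and alignment (STAR, GRCh38), the authors obtained expected counts per gene from RSEM with an Ensembl annotation and deposited them for 60671 genes, not normalized. For the tests the expected counts were rounded to whole numbers. The 14012 genes that reached 1 CPM in 8 or more libraries were fitted with edgeR 4.0.16 (R 4.3.3): TMM scaling, 7 group means, quasi-likelihood tests and Benjamini-Hochberg adjustment over all 14012 genes. A call needed an adjusted p of at most 0.05, and both thresholds added a log2 change of more than 1 in size. The code was tested on simulated data. Sets of genes were described by counts and medians.

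The members, the lists, the comparisons and the rule for named genes were chosen with earlier results of these data known. By that rule MYC and the 3 members with the largest rise and the 3 with the largest fall among those that passed in a comparison were given in full, with at most 3 genes in each direction of every other list, and other members given in full were chosen after their values were seen. Alternatives were limma voom (limma 3.58.1), DESeq2 1.42.0 by Wald test or by its size factors in edgeR, no TMM scaling, other filters on low counts, the compared groups alone, a replicate block and each library left out. Those for DMSO at 4 h against untreated cells and for HEK293T against OCI-AML3 with DMSO were chosen after seeing the data. Coordinates and exon lengths are from GENCODE release 44 (GRCh38) and promoter windows from RefSeq (GRCh38.p14), both newer than the annotation used for counting. Libraries held 13838480 to 19961819 counts. HEK293T at 4 h was not analysed here.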

Additional observations from a re-analysis of the deposited data

Results flagged for a closer look

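Groups of 3 libraries are too small for a test of single outlying libraries, so the results listed here are those whose tunicamycin effect differed between times or between lines by edgeR's interaction test. In OCI-AML3 the effect at 24 h minus that at 4 h was -1.06 for BOP1, -1.03 for WDR74, -0.83 for RRP12, -0.74 for WDR12 and -0.72 for RRP9. It was -0.65 for NOB1, -0.62 for PES1 and for NOP2, -0.60 for FBL and for DDX49, -0.54 for PNO1 and -0.51 for NOP10. Smaller differences were those of BYSL (-0.48), NAT10 (-0.47), DDX10 (-0.46), MYC (-0.43), UTP20 (-0.36), RRN3 (-0.31), NOP14 (-0.30), DKC1 (-0.23) and TSR1 (-0.22), of which the calls of UTP20, DKC1 and TSR1, like that of NOP10, were lost in most alternatives (held in 4, 6, 7 and 7 of 20). RRS1 (0.36) and POLR1B (0.24) had the opposite sign.

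At 24 h the effect in HEK293T minus that in OCI-AML3 was 0.90 for MYC, 0.66 for FBL, 0.65 for WDR74, 0.65 (0.645) for BOP1, 0.56 for RRP12 and 0.54 (0.535) for NOP16. It was 0.48 for DKC1, 0.46 for NHP2 and for DDX10, 0.45 for NOLC1, 0.43 for POLR1C, and 0.40 for GAR1 and for PNO1. The remaining differences were those of PES1 (0.36), NOP2 (0.32), DDX18 (0.30), NCL (0.28), RRP1B (0.26), GNL3 (0.26, adjusted p = 0.044) and TSR1 (0.22). The calls of GNL3 (held in 3 of 20 alternatives), RRP1B (4), GAR1 and TSR1 (5), NOP2 (6), NHP2 (7) and PES1 (9) were lost in most alternatives. MYC and DKC1 were lower in OCI-AML3 and higher in HEK293T, while the other 18 were lower in OCI-AML3 and lower or not past the test in HEK293T. The HEK293T call of DKC1 was lost without any single HEK293T library, without TMM scaling and with every gene of at least 1 count.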

How the results depend on the processing

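Of the summary values recomputed under the alternatives 397 were recorded as unchanged, 20 moved, 9 became stronger and 30 weaker. A median was recorded as unchanged when it stayed within the spread of the replicates. For counts of members the allowance was a fixed ratio to the main count and was wide. With DESeq2's size factors 14 calls instead of 20 for the difference between lines were still recorded as unchanged. Of the values of single genes 554 kept their sign and call, 11 became weaker and 7 reversed. The cause of each change was not tested. With each library left out in turn, the members' median change was -0.108 to -0.062 for tunicamycin at 4 h, -0.405 to -0.342 at 24 h, -0.186 to -0.118 in HEK293T, -0.064 to -0.035 for DMSO at 4 h against untreated cells and 0.606 to 0.679 for HEK293T against OCI-AML3 with DMSO. Members past both thresholds were 0 to 1 at 4 h and at 24 h, and 0 to 2 for the difference between times, where 1 to 3 were higher. For the difference between lines 9 to 18 members were higher and 0 to 1 lower, in HEK293T 1 was higher with tunicamycin, and 1 to 4 were higher for DMSO at 24 h against 4 h. MYC, not called in either comparison, lay between -0.015 and 0.072 at 4 h and between -0.029 and 0.026 for DMSO at 24 h against 4 h (0.017 and 0.026 without the second DMSO library at 4 h or at 24 h), where it was 0.025 with DESeq2 or its size factors and 0.005 with the compared groups alone.

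Without TMM the medians were -0.341 (tunicamycin, 24 h), -0.188 (HEK293T), -0.476 (DMSO, 24 h against 4 h) and 0.956 (HEK293T against OCI-AML3). The last comparison then had 4 lower members and 20 past both thresholds, against 11 past both in the main edgeR fit. In HEK293T 1 member was then higher with tunicamycin, 0 passed both thresholds for the difference between times, and 11 were higher and 2 lower for that between lines. With every gene of at least 1 count the medians were -0.138 (4 h, MYC at -0.006), -0.174 (HEK293T, 1 higher) and 0.433 (HEK293T against OCI-AML3, 6 past both thresholds), 2 members were higher for DMSO at 24 h against 4 h, and 1 was higher for the difference between times. DESeq2 gave 2 higher members and a median of -0.328 for DMSO at 24 h against 4 h (-0.328 with its size factors). For the difference between times 1 member passed both thresholds with DESeq2, its size factors, the filter of 1 CPM in 3 libraries or the compared groups alone. The last 2 settings gave 13 higher members for the difference between lines, and that filter a median of 0.553 for HEK293T against OCI-AML3. Replicate numbers did not pair the samples (correlations of deviations from group means of -0.139 to 0.199). With a replicate block 18 of 18 calls remained at 4 h, 33 of 33 at 24 h, 19 of 21 in HEK293T and 28 of 28 for DMSO at 24 h against 4 h.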
